A study of Mus musculus with 14 samples.

Results

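Gene expression was compared within the 8 arrays of HL-1 cells that had received siRNA against Airn, between the 4 arrays numbered 3 and 4 and the 4 arrays numbered 1 and 2, across 20193 genes. These 2 sets were chosen by replicate number with the measured values in view, Airn included: the arrays numbered 3 and 4 were those with the lower Airn level. Every difference between the sets is therefore described and not tested, and Airn level, culture state and batch cannot be told apart in it. A gene is called apart when all 4 arrays of one set lie beyond all 4 of the other.

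HL-1 is a dividing line of atrial heart muscle cells derived from an atrial tumour of a transgenic mouse. The cells were grown in Claycomb medium with fetal bovine serum, L-glutamine and norepinephrine, transfected with 10 nM siRNA using RNAiMax, and their total RNA was hybridised to 1-colour Affymetrix arrays. The series has 14 arrays, and those used here are siAirn-001.2 numbered 3 and 4, siAirn-001.1 numbered 3 and 4, siAirn-001.2 numbered 1 and 2, siAirn-001.1 numbered 1 and 2, and siScramble numbered 1 to 6, the control siRNA. The labels call the numbers biological replicates, but the sources used here do not say whether a number marks a culture, a passage or a day, when after transfection RNA was extracted, or how the reagents differ.

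Airn is a long non-coding RNA transcribed from the paternal allele, antisense to Igf2r, and it silences neighbouring genes on that chromosome. Several programs named below follow the state of a culture: cells that are growing make ribosomes and chaperones, whereas cells short of oxygen or growth factors turn on glycolysis genes through HIF factors and autophagy genes through FoxO factors. Interferon-stimulated genes answer double-stranded RNA and other signs of infection.

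For the programs with a well-known DNA element, promoters of some genes that are described below and hold it are shown, from 250 bases before to 50 after the start of the gene, 5′ to 3′ on the gene's own strand, from RefSeq for build GRCm38.p6. Capitals mark the element on either strand. In this window, Pdk1 and Pfkl held no ACGTG, and Oasl2 and Irf7 held no match to the interferon core given below. These 4 are not shown. For HIF factors, only the form ACGTG of their element was searched, so promoters without it may hold another form. ACGTG is the form shown here. It lay at chr12:54203825-54204124 (minus strand) of Egln3, an oxygen sensor, at chr7:138909457-138909756 (minus strand) of Bnip3, a mitophagy receptor, where its overlapping matches on both strands form a palindrome, and at chr11:120948817-120949116 (plus strand) of Slc16a3, the lactate exporter.
Egln3: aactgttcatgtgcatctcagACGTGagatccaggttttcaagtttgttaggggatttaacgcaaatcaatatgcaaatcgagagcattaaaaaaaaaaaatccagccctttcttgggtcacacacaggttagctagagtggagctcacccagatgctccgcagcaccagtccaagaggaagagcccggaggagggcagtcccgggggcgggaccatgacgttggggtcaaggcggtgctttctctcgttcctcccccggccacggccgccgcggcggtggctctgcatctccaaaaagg
Bnip3: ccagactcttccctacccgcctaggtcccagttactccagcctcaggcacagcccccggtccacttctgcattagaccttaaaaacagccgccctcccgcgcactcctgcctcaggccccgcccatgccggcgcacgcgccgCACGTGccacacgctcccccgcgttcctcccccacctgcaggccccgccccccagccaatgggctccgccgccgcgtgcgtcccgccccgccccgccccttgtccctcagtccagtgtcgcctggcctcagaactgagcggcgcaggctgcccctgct
Slc16a3: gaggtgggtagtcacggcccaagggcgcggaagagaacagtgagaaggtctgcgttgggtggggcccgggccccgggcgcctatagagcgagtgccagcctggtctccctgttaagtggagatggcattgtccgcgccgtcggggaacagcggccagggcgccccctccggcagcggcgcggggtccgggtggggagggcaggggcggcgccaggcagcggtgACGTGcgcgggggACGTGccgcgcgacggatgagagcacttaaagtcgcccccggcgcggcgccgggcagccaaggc
The E-box CACGTG, an element that Myc and other factors bind and that itself contains ACGTG, lay at chr11:72441077-72441376 (plus strand) of Mybbp1a, a nucleolar protein of ribosome production.
Mybbp1a: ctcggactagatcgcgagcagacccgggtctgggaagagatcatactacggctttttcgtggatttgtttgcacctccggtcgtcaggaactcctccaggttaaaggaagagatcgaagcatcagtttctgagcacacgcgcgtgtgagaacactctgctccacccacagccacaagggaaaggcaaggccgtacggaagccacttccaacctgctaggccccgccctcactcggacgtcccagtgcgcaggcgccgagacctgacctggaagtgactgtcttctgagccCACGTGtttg
The core of the interferon-stimulated response element, GAAA followed by any 2 bases and GAAA again, lay at chr19:34640639-34640938 (plus strand) of Ifit1, which binds foreign RNA, and at chr5:92348840-92349139 (minus strand) of Cxcl10, a chemokine. Ifit1 was not apart between the sets, and Cxcl10 was counted in the chemokine list below, not among the interferon-stimulated genes.
Ifit1: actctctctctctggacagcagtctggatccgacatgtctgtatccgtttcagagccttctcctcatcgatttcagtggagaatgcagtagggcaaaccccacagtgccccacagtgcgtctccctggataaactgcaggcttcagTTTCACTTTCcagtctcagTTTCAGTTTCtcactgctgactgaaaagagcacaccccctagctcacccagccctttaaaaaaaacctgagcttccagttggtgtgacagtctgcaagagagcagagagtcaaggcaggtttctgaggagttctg
Cxcl10: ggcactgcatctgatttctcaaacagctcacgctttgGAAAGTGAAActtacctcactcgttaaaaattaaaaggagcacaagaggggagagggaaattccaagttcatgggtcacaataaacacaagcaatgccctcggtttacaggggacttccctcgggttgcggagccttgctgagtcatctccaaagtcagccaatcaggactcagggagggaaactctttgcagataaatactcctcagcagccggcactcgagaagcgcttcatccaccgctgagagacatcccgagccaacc
Among 13390 measured genes with a promoter in the table, 24.5% held ACGTG on either strand, against 72.7% (16 of 22) of the hypoxia response list and 85.7% (6 of 7) of its members that were lower in arrays 3 and 4. Over all genes that were apart, the share with ACGTG was 31.3% of the 972 higher and 31.2% of the 919 lower ones. CACGTG stood in 9.56% of all promoters, in 24.1% (13 of 54) of the ribosome biogenesis list, in 27.8% (10 of 36) of its members that were higher, in 14.9% of all higher genes and in 9.9% of all lower genes. The interferon core stood in 3.81% of all promoters, in 41.0% (16 of 39) of the interferon-stimulated genes and in 36.4% (4 of 11) of those that were higher. A match describes the letters in this window and does not show that a factor was bound.

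The sets parted the 8 arrays further than the reagents did. They took 33.4% of the variance summed over all genes, the reagent took 22.0%, and the part of the division that differed between reagents took 13.4%. On the first principal component (36.2% of the variance) the arrays numbered 3 and 4 lay at 24.5 and 21.8 with siAirn-001.2 and at 3.44 and 4.94 with siAirn-001.1, and those numbered 1 and 2 lay at -6.70 and -12.3 with siAirn-001.2 and at -17.2 and -18.5 with siAirn-001.1. Of 20193 genes, 1376 (6.81%) were apart and higher in arrays 3 and 4, and 1374 (6.8%) were apart and lower. By at least 1.5-fold, 142 genes (0.703%) were higher and 187 (0.926%) lower. The split of genes that were apart moved to 1731 higher and 965 lower when every array was centred on its median, and by 1.5-fold it turned to 177 higher and 152 lower, the median difference over all genes being -0.02 on the log2 scale. These shares rest on the contrast that chose the sets and carry no test. For every count of list members apart given below, the shares to set beside it are 6.81% higher and 6.8% lower over all genes.

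The siScramble arrays were compared by the same numbers. In siScramble 3 and 4 against 1 and 2, limma called 0 of 20193 genes at an adjusted p under 0.05 (0.0%), 796 had an unadjusted p under 0.05, and the lowest adjusted p was 0.955. Across genes, that siScramble difference had a correlation of -0.013 with the difference between the siAirn sets. Among the 329 genes apart by 1.5-fold, its largest absolute value was 0.88. With 2 arrays a side, the test cannot exclude differences between these siScramble arrays. The siScramble arrays divided elsewhere: numbers 1 to 4 lay above 5 and 6 for 3078 genes (15.2%) and below them for 3630 (18.0%), a division picked out after its values were seen and described without a test. Of the 142 genes that were at least 1.5-fold higher in siAirn 3 and 4, siScramble 1 to 4 lay above 5 and 6 for 116 (81.7%) and below for 5. Of the 187 that were lower by as much, siScramble 1 to 4 lay below 5 and 6 for 121 (64.7%) and above for 2. Across all genes the correlation between both differences was 0.54. The sources used here do not say what siScramble 5 and 6 shared with siAirn 1 and 2, and this was not tested. The siScramble cells had received the control siRNA, and why 116 of the 142 and 121 of the 187 genes had the same direction there was not tested.

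**Figure D1:**
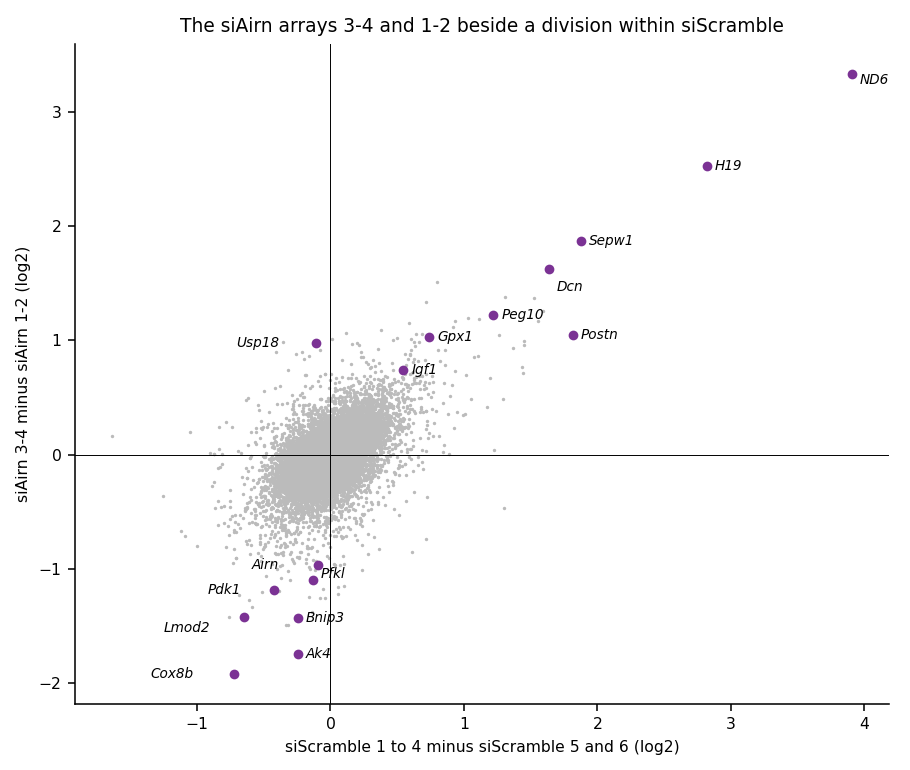
Each point is 1 of 20193 genes, with the log2 difference of siScramble arrays 1 to 4 minus 5 and 6 on the horizontal axis and of siAirn arrays 3-4 minus 1-2, adjusted for reagent, on the vertical axis, and the genes labelled by name are purple. ND6, H19, Sepw1 and Dcn lie far out on both axes, whereas Airn, Usp18, Pfkl, Ak4 and Bnip3 lie near 0 on the horizontal axis.

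Airn itself had log2 levels of 10.71, 10.85, 10.94 and 10.93 in siAirn arrays 3 and 4, against 11.93, 11.67, 11.89 and 11.82 in arrays 1 and 2 and 12.16, 11.90, 11.78, 11.98, 12.06 and 12.03 in siScramble 1 to 6. Here and below, the 4 values of a set are given for siAirn-001.2 (the lower number first) and then for siAirn-001.1. The arrays numbered 3 and 4 averaged 10.86 ± 0.11, those numbered 1 and 2 averaged 11.83 ± 0.11 (SD, n = 4 each), and siScramble averaged 11.98 ± 0.13 (SD, n = 6). The difference between the sets, adjusted for reagent, was -0.97 (standard error, SE, 0.08), which is a 1.96-fold lower level, and it was -1.02 with siAirn-001.2 and -0.92 with siAirn-001.1. All 4 arrays of the first set lay below every other array, whereas 3 of the 4 arrays numbered 1 and 2, although labelled siAirn, lay within the siScramble range. The siScramble arrays 5 and 6 did not lie apart from 1 to 4 for Airn, so this gene did not follow the siScramble division.

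Igf2r, the gene that Airn overlaps, had 6.81, 6.85, 6.81 and 6.92 in arrays 3 and 4, against 6.85, 6.89, 6.70 and 6.70 in arrays 1 and 2. The sets overlapped, and the difference was 0.06 (SE 0.07). Of 19 measured genes in and around the Airn locus, 1 (5.26%) was apart and higher, beside 6.81% of all genes. Apart and lower were 4 (21.05%), beside 6.8% of all genes. Airn is among these 4, and its place there was fixed in advance because its level was in view when the sets were chosen. The list's median difference was -0.02, as over all genes, and it was -0.03 with siAirn-001.2 and 0.01 with siAirn-001.1. Tcp1, a chaperonin subunit that is also counted as a neighbour, was higher by 0.33 (SE 0.07) and lay at 11.78 to 11.94 in arrays 3 and 4, against 11.45 to 11.67 in arrays 1 and 2. Park2, which encodes the ubiquitin ligase parkin, was lower by a difference of -0.32 (SE 0.07).

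**Figure D2:**
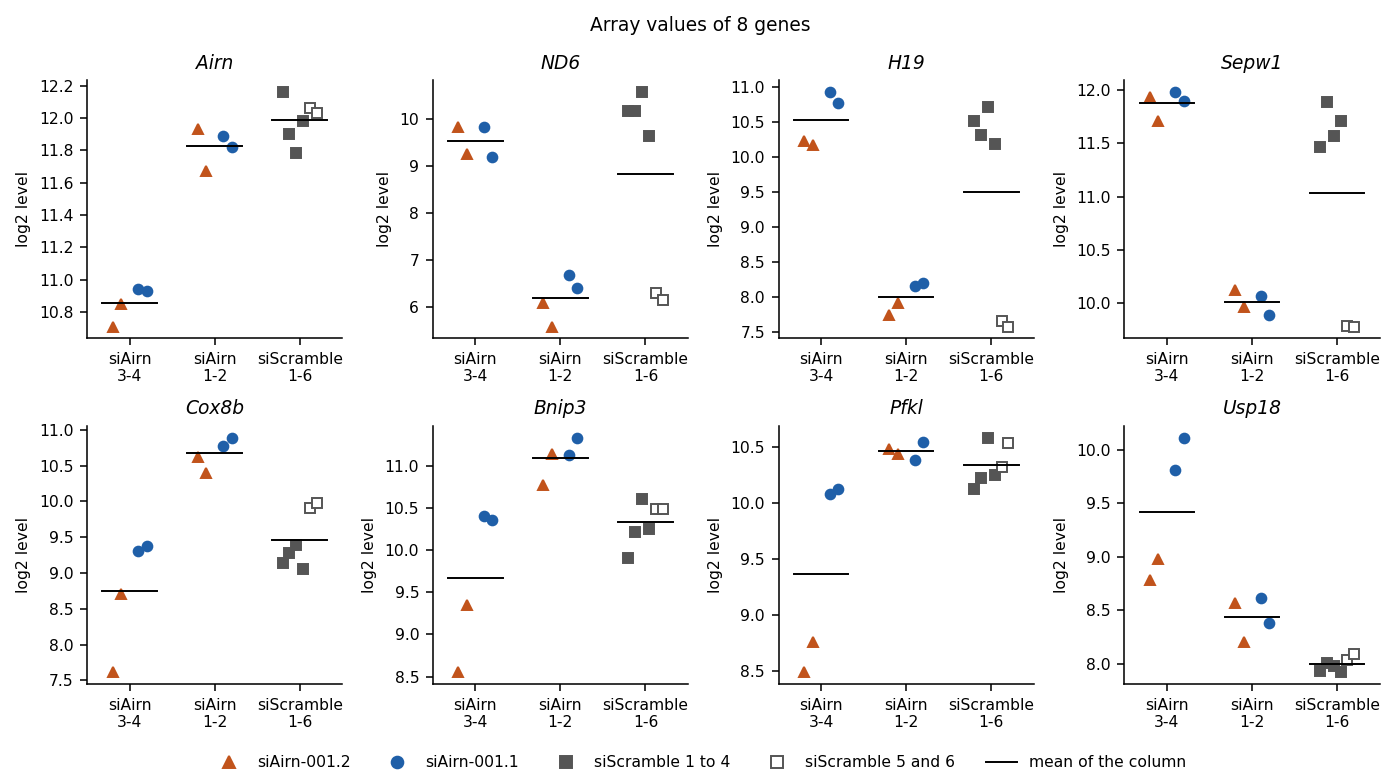
Log2 levels of 8 genes on all 14 arrays, with the siAirn arrays 3-4 and 1-2 and siScramble 1-6 from left to right, reagents by symbol and colour, siScramble 5 and 6 as open squares, and the mean of each column as a bar; each panel has its own axis, which does not start at 0. ND6, H19 and Sepw1 divide the siScramble arrays as they divide the siAirn arrays, Airn does not, Pfkl is lowest in siAirn-001.2 arrays 3 and 4, and Usp18 is highest in siAirn-001.1 arrays 3 and 4.

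The largest difference of all was in ND6, a subunit of respiratory complex I that is the one protein encoded on the light strand of mitochondrial DNA. ND6 had 9.82, 9.26, 9.83 and 9.18 in arrays 3 and 4, against 6.09, 5.59, 6.68 and 6.40 in arrays 1 and 2. In siScramble it had 10.17, 10.16, 10.57 and 9.64 in arrays 1 to 4 and 6.30 and 6.15 in arrays 5 and 6. The difference between the siAirn sets was 3.34 (SE 0.20), or 10.1-fold, and the lowest array numbered 3 or 4 (9.18) lay above the highest numbered 1 or 2 (6.68). Of 8 measured mitochondrially encoded subunits, a list added after ND6 was seen, 7 were apart and higher and none lower, with a median difference of 0.15. The others differed far less than ND6. ND1, also of complex I and encoded on the heavy strand, lay at 13.98 to 14.10 in arrays 3 and 4, against 13.71 to 13.92 in arrays 1 and 2. For all 8 subunits, siScramble 1 to 4 lay above 5 and 6 as well.

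H19, an imprinted non-coding RNA of the maternal allele that growing fetal tissue makes in large amounts, came second. It had 10.23, 10.17, 10.93 and 10.77 in arrays 3 and 4, against 7.74, 7.91, 8.15 and 8.19 in arrays 1 and 2, a difference of 2.53 (SE 0.09), or 5.77-fold. In siScramble it had 10.52, 10.32, 10.71 and 10.18 in arrays 1 to 4 and 7.65 and 7.57 in arrays 5 and 6, so the first 4 lay with siAirn 3 and 4 and the other 2 below siAirn 1 and 2. Among 27 measured imprinted genes outside the Airn locus, 6 were apart and higher and 2 apart and lower, with a median difference of 0.05, against -0.02 for all genes. Peg10, a retrotransposon-derived gene needed in the placenta, had 12.67, 12.48, 12.78 and 12.83, against 11.70, 11.28, 11.32 and 11.55 in arrays 1 and 2. Phlda2, a growth-limiting gene of the same maternally expressed kind as H19, was higher by 1.09 (SE 0.08). Of the 27 genes, siScramble 1 to 4 lay above 5 and 6 for 10 and below for 2.

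Selenoproteins carry selenocysteine at a UGA codon, and the messenger RNAs of some of them are known to be degraded when selenium is short. Sepw1, a small redox protein of muscle, had 11.93, 11.71, 11.98 and 11.90 in arrays 3 and 4, against 10.12, 9.96, 10.07 and 9.89 in arrays 1 and 2, a difference of 1.87 (SE 0.09). Gpx1, the cytosolic glutathione peroxidase, had 10.97, 11.28, 11.21 and 11.33, against 10.22, 10.26, 10.11 and 10.09 in arrays 1 and 2, and was higher by 1.03 (SE 0.09). For both genes the sets lay far apart with either reagent, and siScramble 1 to 4 lay above 5 and 6. Selenoprotein H (listed as 2700094K13Rik) was higher by 0.69 (SE 0.09) and Txnrd1, a thioredoxin reductase, by 0.58 (SE 0.09). Of 21 measured selenoproteins, 5 were apart and higher and none lower, yet the list's median difference was 0.05, so most members did not share the size of the first 4. This list was written after Sepw1 and Gpx1 had been seen.

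Ribosome biogenesis was the program with the most members apart. Of 65 measured genes for making ribosomes, 40 were apart and higher in arrays 3 and 4 and none lower, which is 61.5% of the list beside 6.81% of all genes, and the median difference was 0.34. Mybbp1a, whose promoter is shown above, had 10.45, 10.42, 10.48 and 10.52 in arrays 3 and 4, against 9.85, 9.69, 9.56 and 9.44 in arrays 1 and 2, a difference of 0.83 (SE 0.09). Rrp12, an export factor of preribosomes, was higher by 0.71 (SE 0.11), and Utp20, which processes the small subunit's RNA, by 0.67 (SE 0.09). The list's mean level, taken on each array relative to the siScramble mean, lay between -0.184 and -0.004 in arrays 3 and 4, against -0.507 and -0.332 in arrays 1 and 2, and between 0.047 and 0.127 in siScramble 1 to 4, with -0.094 and -0.219 in siScramble 5 and 6. Arrays 3 and 4 thus lay below siScramble 1 to 4 and near 5 and 6, and arrays 1 and 2 lay below all siScramble arrays. Of the 65 genes, siScramble 1 to 4 lay above 5 and 6 for 41 and below for 2. The ribosomal proteins themselves differed little: of 57 cytoplasmic ones, 9 were apart and higher and 2 lower, with a median difference of 0.01.

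**Figure D3:**
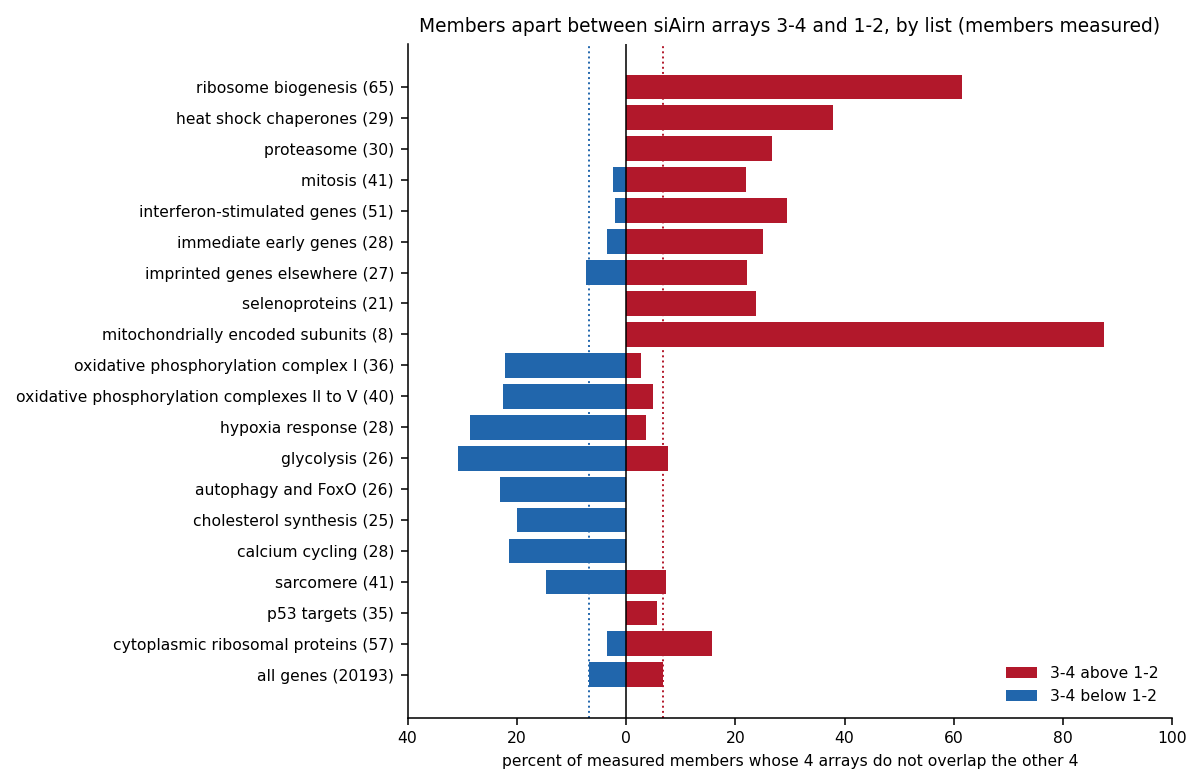
Bars show the percent of each list's measured members (their number in brackets) whose values in siAirn arrays 3-4 all lie above (red, to the right) or all below (blue, to the left) those in arrays 1-2; dotted lines mark the shares over all genes. Ribosome biogenesis and the mitochondrially encoded subunits reach far to the right, and hypoxia response and glycolysis reach furthest to the left.

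Several heat shock chaperones and proteasome genes were apart and higher. Of 29 heat shock chaperones, 11 (37.9%) were apart and higher and none lower, beside 6.81% and 6.8% of all genes. Their median difference was 0.20. Hsph1, a partner of Hsp70, had 10.44, 10.42, 10.38 and 10.54 in arrays 3 and 4, against 9.95, 9.77, 9.73 and 9.61 in arrays 1 and 2. Cct3, a subunit of the cytosolic chaperonin, was higher by 0.50 (SE 0.07) and Hspd1, the mitochondrial chaperonin, by 0.42 (SE 0.08). Of 30 proteasome genes, 8 (26.7%) were apart and higher and none lower, with a median of 0.12 and Psmd14 highest at 0.46 (SE 0.09). Of 21 aminoacyl-tRNA synthetases and their partners, 3 were apart and higher, and Vars, which charges valine tRNA, was higher by 0.61 (SE 0.08). For the chaperones, siScramble 1 to 4 lay above 5 and 6 for 18 genes and below for none. Of 29 unfolded protein response genes, 6 (20.7%) were apart and higher and 3 (10.3%) lower (median 0.03). Of 40 lysosome and proton pump genes, 3 (7.5%) were higher and 2 (5.0%) lower (median 0.01), near the shares of all genes.

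Cell division genes divided unevenly. Of 41 mitosis genes, 9 (21.95%) were apart and higher and 1 (2.44%) lower, beside 6.81% and 6.8% of all genes. Their median difference was 0.09, which was 0.20 with siAirn-001.2 and 0.01 with siAirn-001.1. Cdc20, which activates the anaphase-promoting complex, lay at 10.76 to 10.90 in arrays 3 and 4, against 10.32 to 10.60 in arrays 1 and 2, and Aurka, a spindle kinase, lay at 11 to 11.34, against 10.79 to 10.84. Of 41 DNA replication genes, 2 (4.88%) were apart and higher and 6 (14.6%) lower. Of 35 p53 targets, 2 were apart and higher and none lower, shares below those of all genes. For the mitosis genes, siScramble 1 to 4 lay above 5 and 6 for 23 and below for 1.

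Interferon-stimulated genes lay higher in arrays 3 and 4, by a larger median with siAirn-001.1. Of 51 measured, 15 were apart and higher and 1 lower, with a median difference of 0.27, which was 0.09 with siAirn-001.2 and 0.36 with siAirn-001.1. Usp18, which trims the ubiquitin-like protein Isg15 from its targets, had 8.78, 8.98, 9.81 and 10.11 in arrays 3 and 4, against 8.57, 8.20, 8.61 and 8.38 in arrays 1 and 2 and 7.92 to 8.09 in siScramble. All 8 siAirn arrays lay above all 6 siScramble arrays for this gene, and siAirn-001.1 numbered 3 and 4 lay highest. Oasl2, a relative of the antiviral oligoadenylate synthetases, was higher by 0.92 (SE 0.11), and Irf7, the transcription factor that amplifies interferon production, by 0.91 (SE 0.14). In contrast to the genes above, the siScramble arrays did not divide in one direction over this list, 1 to 4 lying above 5 and 6 for 9 members and below for 12. The mean of the list, relative to siScramble, was between 0.135 and 0.588 in arrays 3 and 4, against 0.009 and 0.135 in arrays 1 and 2. Of 9 measured interferon-inducible GTPases of the IRG and GBP families, a separate list, none was apart in either direction. Their median difference was 0.03, which was -0.07 with siAirn-001.2 and 0.05 with siAirn-001.1.

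For some interferon-stimulated genes the difference itself differed between reagents. Ifit1 had 6.73 and 6.77 with siAirn-001.2 in arrays 3 and 4, against 6.94 and 6.60 in arrays 1 and 2, and it had 8.14 and 8.55 with siAirn-001.1 in arrays 3 and 4, against 7.03 and 6.83 in arrays 1 and 2. The siAirn-001.2 difference minus the siAirn-001.1 difference was -1.43 (limma adjusted p = 0.00424). Rtp4, another gene of this response, had a difference of 0.17 with siAirn-001.2 and 1.56 with siAirn-001.1 and a contrast of -1.39 (limma adjusted p = 0.00393). For Usp18 the contrast was -0.97 (limma adjusted p = 0.0186), and it did not pass the threshold without siAirn-001.1 numbered 2 or without siAirn-001.2 numbered 1 or 3 (adjusted p up to 0.0916). Of the 51 genes, 1 had a larger and 4 a smaller difference with siAirn-001.2 by this test, beside 1.37% and 1.71% of all genes.

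Chemokine and cytokine genes that were apart were mostly higher. Of 40 chemokine, cytokine and NF-kappaB genes, 6 were apart and higher and 1 lower, with a median of 0.02. Cxcl10, whose promoter is shown above, had 9.69, 9.21, 8.03 and 8.55 in arrays 3 and 4, against 7.75, 7.96, 7.71 and 7.59 in arrays 1 and 2, and was higher by 1.12 (SE 0.20). Its highest values were those of siAirn-001.2, and the contrast between reagents was 0.96 (limma adjusted p = 0.0653), which did not pass. Icam1, a receptor for leukocytes, lay at 8.54 to 8.68 in arrays 3 and 4, against 7.82 to 8.06 in arrays 1 and 2, with 8.46 to 8.68 in siScramble 1 to 4 and 7.95 to 7.97 in 5 and 6. Of 28 immediate early genes, which growth factors and stress turn on within minutes, 7 were apart and higher and 1 lower, with a median of 0.10. Jun was higher by 0.50 (SE 0.11) and Egr1 by 0.44 (SE 0.09), and for neither did siScramble 1 to 4 lie apart from 5 and 6.

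Genes of the extracellular matrix and of mesenchymal cells were among the largest differences. Dcn, the collagen-binding proteoglycan decorin, had 7.13, 7.77, 7.29 and 7.46 in arrays 3 and 4, against 5.83, 5.76, 5.56 and 6.00 in arrays 1 and 2, a difference of 1.62 (SE 0.14). Col12a1, a collagen of the fibril surface, had 10.17, 9.97, 9.10 and 9.31, against 8.73, 8.16, 7.87 and 7.75 in arrays 1 and 2, with siAirn-001.2 above siAirn-001.1 in both sets. Lum and Ogn, both small leucine-rich proteoglycans, were higher by 1.05 (SE 0.12) and 0.78 (SE 0.09). These 3 of 13 small leucine-rich proteoglycans were apart, while the median of that list was -0.05. Postn, a matrix protein of injured heart, lay at 7.58 to 8.04 in arrays 3 and 4, against 6.63 to 6.76 in arrays 1 and 2, and Thbs1, a matrix protein that YAP is known to regulate, was higher by 0.82 (SE 0.13). Over all 52 collagen and basement membrane genes, 6 (11.5%) were apart and higher and 4 (7.69%) lower, beside 6.81% and 6.8% of all genes. For Dcn, Col12a1, Lum, Ogn, Postn and Thbs1, siScramble 1 to 4 lay above 5 and 6.

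Some of these genes also mark fibroblasts, and the marker lists give the following values. Of 11 fibroblast markers, 4 lay above the median level of their arrays. Dcn, Lum and Postn (3 of 11) were apart and higher and none was lower. Over the list, 6 differences lay above 0 and 5 below, with a median of 0.04. It was -0.07 with siAirn-001.2 and 0.18 with siAirn-001.1, so the members did not share 1 direction. The list's mean, relative to siScramble, lay between -0.060 and 0.061 in arrays 3 and 4, against -0.483 and -0.150 in arrays 1 and 2, and between -0.305 and 0.170 in siScramble. Whether fibroblast-like cells had a part in these differences was not tested, and in bulk RNA more cells of a kind and more RNA per cell cannot be told apart. Of 13 cardiomyocyte markers, all lay above the median level of their arrays, with member means from 9.36 to 13.7, and 2 (Ttn and Ryr2) were apart and lower. No macrophage and leukocyte marker (of 11) lay above that median, and none was apart. Of 10 smooth muscle and pericyte markers none was apart, 1 of 10 endothelial markers was higher, 1 of 10 epithelial and mesothelial markers lower, and of 12 skeletal muscle markers 2 were higher and 1 lower.

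Of 17 genes of the IGF axis, 3 were apart and higher and 1 lower, with a median of -0.01. Igf1, the growth factor, had 7.93, 7.88, 7.78 and 7.83 in arrays 3 and 4, against 7.06, 7.15, 7.12 and 7.13 in arrays 1 and 2, with little spread in either set. Igfbp7, a secreted binding protein of that axis, was higher by 1.17 (SE 0.11), S100a11, a calcium-binding protein, by 1.33 (SE 0.10), and the receptor tyrosine kinase Axl by 1.02 (SE 0.08). Of 14 retinoid and aryl hydrocarbon targets, 4 were apart and higher and none lower. Aldh1a1, which makes retinoic acid, was higher by 1.01 (SE 0.08), Cyp26b1, which degrades it, by 0.88 (SE 0.10), and Tgm2, a transglutaminase that retinoic acid is known to induce, by 0.74 (SE 0.09). Pcx, the enzyme that replenishes the citric acid cycle with oxaloacetate, had 10.12, 9.99, 9.68 and 9.69 in arrays 3 and 4, against 9.54, 9.26, 8.96 and 8.90 in arrays 1 and 2, and siScramble did not divide for it or for Aldh1a1. For Igf1, Igfbp7, S100a11, Axl, Cyp26b1 and Tgm2, siScramble 1 to 4 lay above 5 and 6, by 1.55 for Igfbp7 and 0.72 for S100a11.

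Genes of the response to low oxygen lay lower in arrays 3 and 4. Of 28 measured, 8 (28.6%) were apart and lower and 1 (3.57%) higher, with a median difference of -0.13. Egln3, whose promoter is shown above, had 7.99, 8.16, 9.62 and 9.48 in arrays 3 and 4, against 9.80, 10.29, 10.56 and 10.58 in arrays 1 and 2 and 8.82, 9.26, 9.52, 9.32, 9.39 and 9.71 in siScramble. Its difference was -1.50 (SE 0.18), and arrays 1 and 2 lay above all siScramble arrays, siAirn-001.1 numbered 3 and 4 lay within the siScramble range and siAirn-001.2 numbered 3 and 4 lay below it. Bnip3 had 8.55, 9.35, 10.40 and 10.36, against 10.77, 11.14, 11.13 and 11.33 in arrays 1 and 2 and 9.91 to 10.61 in siScramble, the same order as Egln3. Pdk1, the kinase that shuts pyruvate out of the citric acid cycle, had 8.14, 8.43, 8.61 and 8.75, against 9.40, 9.57, 9.87 and 9.84 in arrays 1 and 2, and was lower with both reagents (-1.2 with siAirn-001.2 and -1.17 with siAirn-001.1).

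**Figure D4:**
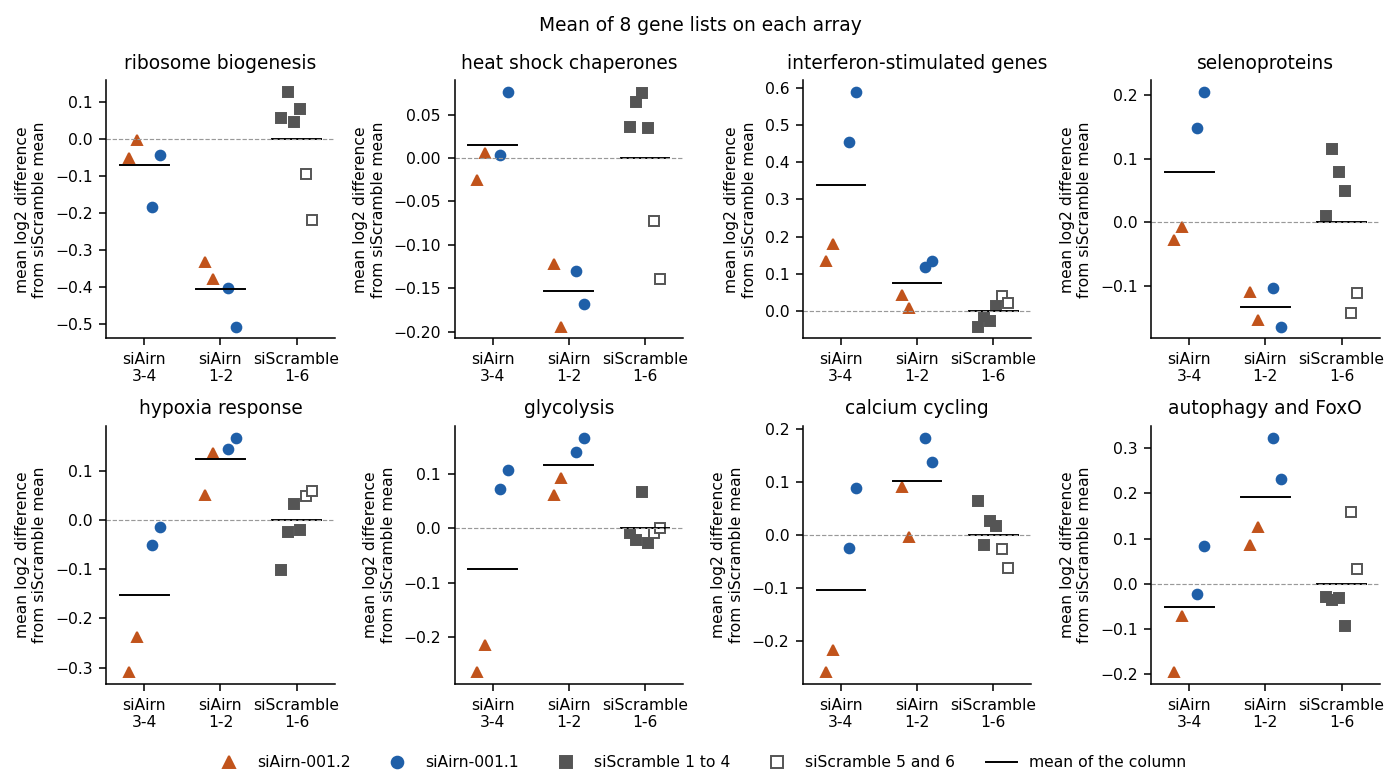
Mean over the measured members of 8 lists, each gene taken as its log2 difference from the mean of the 6 siScramble arrays, on every array, with siAirn 3-4, siAirn 1-2 and siScramble 1-6 from left to right and the mean of each column as a bar. Ribosome biogenesis is lowest in siAirn 1-2, with siScramble 6 nearest to them. Chaperones are lowest in siAirn 1-2 and siScramble 6, whose values overlap. Interferon-stimulated genes are highest in siAirn-001.1 arrays 3 and 4. Hypoxia response, glycolysis and calcium cycling are lowest in siAirn-001.2 arrays 3 and 4.

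Glycolysis genes lay lower as well, and some of them parted the reagents. Of 26 measured, 8 (30.8%) were apart and lower and 2 (7.69%) higher, with a median of -0.08. Pfkl, the liver form of phosphofructokinase, had 8.49, 8.76, 10.08 and 10.12 in arrays 3 and 4, against 10.48, 10.44, 10.38 and 10.54 in arrays 1 and 2 and 10.12 to 10.58 in siScramble. Its difference was -1.84 with siAirn-001.2 and -0.36 with siAirn-001.1, and the contrast between them was -1.48 (limma adjusted p = 0.00168). Slc16a3 had 9.59, 9.52, 10.65 and 10.61, against 11.03, 11.08, 11.01 and 11.29 in arrays 1 and 2, and Slc2a4, the insulin-regulated glucose transporter, was lower by a difference of -0.74 (SE 0.12). Slc2a1, the basal glucose transporter, was not apart: its difference was -0.50 with siAirn-001.2 and 0.39 with siAirn-001.1, with a contrast of -0.89 (limma adjusted p = 0.00254). Ak4, a mitochondrial adenylate kinase, had 6.63, 7.14, 9.47 and 9.43 in arrays 3 and 4, against 9.52, 9.84, 10.15 and 10.15 in arrays 1 and 2. With siAirn-001.2 its levels in arrays 3 and 4 lay below those of every other array of the series, and the contrast between reagents was -2.09 (limma adjusted p = 0.00178). Of the 26 glycolysis genes, 6 were lower with siAirn-001.2 than with siAirn-001.1 in this test, beside 1.71% of all genes, and none higher, beside 1.37%.

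Some nuclear genes of oxidative phosphorylation were apart and lower. Of 36 complex I genes, 8 (22.2%) were apart and lower and 1 (2.78%) higher. Of 40 genes of complexes II to V, 9 (22.5%) were lower and 2 (5.0%) higher. The medians were small, at -0.07 for complex I (-0.03 with siAirn-001.2 and -0.15 with siAirn-001.1) and -0.05 for complexes II to V (-0.03 and -0.09), against -0.02 for all genes (-0.03 and 0.00). The largest differences were in the forms of cytochrome c oxidase subunits that heart and skeletal muscle use. Cox8b had 7.61, 8.71, 9.31 and 9.38 in arrays 3 and 4, against 10.62, 10.40, 10.78 and 10.89 in arrays 1 and 2 and 9.14, 9.28, 9.39, 9.06, 9.91 and 9.98 in siScramble, a difference of -1.92 (SE 0.23). Cox6a2 had 9.69, 9.85, 10.56 and 10.71, against 11.04, 10.98, 11.12 and 11.15 in arrays 1 and 2, and Cox7a1 was lower by a difference of -0.57 (SE 0.10). For Cox8b and Cox6a2, arrays 1 and 2 lay above all siScramble arrays.

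Genes of the contractile apparatus, of calcium handling and of cardiac ion channels were lower more often than higher. Of 41 sarcomere genes, 6 (14.6%) were apart and lower and 3 (7.32%) higher, beside 6.8% and 6.81% of all genes. Their median was -0.12, which was -0.12 with siAirn-001.2 and -0.01 with siAirn-001.1. Lmod2, which sets the length of thin filaments, had 8.86, 9.03, 9.67 and 9.66 in arrays 3 and 4, against 10.50, 10.60, 10.91 and 10.90 in arrays 1 and 2, a difference of -1.42 (SE 0.09). Ttn, the giant elastic protein, had 8.54, 8.66, 9.25 and 9.16, against 9.59, 9.39, 10.13 and 10.13 in arrays 1 and 2. Myom1, which links myosin filaments at the M-line, was lower by a difference of -0.72 (SE 0.09), whereas Myl2, the regulatory light chain of ventricular muscle, was higher by 0.57 (SE 0.09). Over this list siScramble 1 to 4 lay above 5 and 6 for 24 members, Myom1 among them, and below for 4, Lmod2 among them.

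Of 28 calcium cycling genes, 6 (21.4%) were apart and lower and none higher, beside 6.8% and 6.81% of all genes. Their median was -0.13, which was -0.24 with siAirn-001.2 and -0.04 with siAirn-001.1. Cacna1c, the pore of the L-type calcium channel, had 9.05, 9.02, 9.75 and 9.71 in arrays 3 and 4, against 10.03, 9.91, 10.35 and 10.21 in arrays 1 and 2, and Ryr2, the calcium release channel, was lower by a difference of -0.36 (SE 0.09). Among 30 ion channel and pacemaking genes 3 (10.0%) were apart and higher and 5 (16.7%) lower, with a median of -0.17 with siAirn-001.2 and -0.04 with siAirn-001.1. Kcne1, a subunit of the slow delayed rectifier, was lower by a difference of -0.81 (SE 0.08), and Adcy6, a cardiac adenylyl cyclase, by -0.51 (SE 0.12). Nppb, the B-type natriuretic peptide of strained muscle, was higher by 0.97 (SE 0.15). Kcnk3, a background potassium channel, had 8.85 and 8.80 with siAirn-001.2 in arrays 3 and 4, against 8.78 and 8.74 in arrays 1 and 2, and 9.50 and 9.57 with siAirn-001.1 in arrays 3 and 4, against 8.47 and 8.61 in arrays 1 and 2. Its contrast between reagents was -0.93 (limma adjusted p = 0.00357).

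Several atrial genes parted the reagents within arrays 3 and 4 and are not apart between the sets. Nppa, the atrial natriuretic peptide, had 8.99 and 9.17 with siAirn-001.2 in arrays 3 and 4, against 9.05 and 9.09 in arrays 1 and 2, and 10.06 and 10.38 with siAirn-001.1 in arrays 3 and 4, against 9.02 and 8.91 in arrays 1 and 2. The contrast was -1.25 (limma adjusted p = 0.00214). Hcn4, the pacemaker channel, had a difference of -0.44 with siAirn-001.2 and 0.77 with siAirn-001.1, with a contrast of -1.21 (limma adjusted p = 0.00293). Kcnj5, a subunit of the acetylcholine-gated potassium channel of the atrium, had -1.09 and -0.00 in the same order, with a contrast of -1.09 (limma adjusted p = 0.00168). In arrays 3 and 4, siAirn-001.2 lay below siAirn-001.1 for all 3 genes.

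Autophagy, glucocorticoid and clock genes that were apart were lower. Of 26 autophagy and FoxO target genes, 6 (23.1%) were apart and lower and none higher, beside 6.8% and 6.81% of all genes. Their median was -0.12, which was -0.04 with siAirn-001.2 and -0.21 with siAirn-001.1. The siScramble arrays 1 to 4 lay below 5 and 6 for 12 of these 26 genes and above for 1. Ccng2, a cyclin that FoxO factors induce and that slows the cell cycle, had 7.97, 8.10, 8.36 and 8.64 in arrays 3 and 4, against 8.75, 9.05, 9.52 and 9.48 in arrays 1 and 2. Sgk1, a kinase that glucocorticoids induce, was lower by a difference of -0.87 (SE 0.09), and of 18 glucocorticoid targets 3 (16.7%) were apart and lower and none higher. Slc40a1, the iron exporter ferroportin, was lower by a difference of -0.96 (SE 0.15). Of 18 circadian clock genes, 3 (16.7%) were apart and lower and none higher, with Nr1d2, a clock repressor, at -0.45 (SE 0.07) and Per3 at -0.36 (SE 0.08). For Ccng2, Sgk1, Slc40a1, Nr1d2 and Per3, siScramble 1 to 4 lay below 5 and 6.

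Lipid synthesis genes that were apart were lower. Of 25 cholesterol synthesis genes, 5 were apart and lower and none higher, with a median of -0.18, which was -0.25 with siAirn-001.2 and -0.04 with siAirn-001.1. Hmgcs1, the enzyme that makes the precursor of mevalonate, had 10.12, 10.25, 10.75 and 10.82 in arrays 3 and 4, against 10.91, 10.93, 11.29 and 11.18 in arrays 1 and 2. Of 22 lipogenesis genes, 4 (18.2%) were apart and lower and none higher, with a median of -0.19 with siAirn-001.2 and 0.01 with siAirn-001.1. Pnpla3, a lipid droplet protein, was lower by a difference of -0.77 (SE 0.08). Of 31 death regulators, 6 (19.35%) were apart and higher and 4 (12.9%) lower, beside 6.81% and 6.8% of all genes. Casp4, the caspase of the non-canonical inflammasome, was higher by 0.85 (SE 0.10), whereas the lipid droplet protein Cideb was at -0.90 (SE 0.07) and the executioner caspase Casp6 at -0.82 (SE 0.11).

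Other genes that were much lower belonged to no list. Dlx5, a homeobox factor, had 6.93, 6.81, 7.81 and 7.91 in arrays 3 and 4, against 8.18, 8.62, 9.49 and 9.16 in arrays 1 and 2, and Fgf7, a growth factor for epithelia, had 8.05, 8.55, 8.20 and 8.42, against 9.86, 9.68, 9.76 and 9.45 in arrays 1 and 2. For Fgf7 the siScramble arrays, at 8.91 to 9.24, lay between the sets. Angpt1, the ligand that stabilises vessels, was lower by a difference of -1.23 (SE 0.18), and the carbonyl reductase Cbr2 and the dehydrogenase Dhrs7 by -1.42 (SE 0.11) and -1.28 (SE 0.10).

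Whether the reagents differed in the division was tested across all genes, because this contrast was not used to choose the sets. In limma, 622 of 20193 genes had a difference between the sets that itself differed between reagents at an adjusted p under 0.05, 277 higher (1.37%) and 345 lower (1.71%) with siAirn-001.2, and for 478 of the 622 the reagents had opposite signs. Among the genes that were apart, 24 of 1376 higher and 40 of 1374 lower ones were called. Among the largest called contrasts were those of Igfbp5, a secreted binding protein of IGF, and Slc38a3, a glutamine transporter. Igfbp5 had 9.32 and 9.45 with siAirn-001.2 in arrays 3 and 4, against 11.20 and 11.35 in arrays 1 and 2, and 11.66 and 11.57 with siAirn-001.1 in arrays 3 and 4, against 11.59 and 11.67 in arrays 1 and 2 (contrast -1.87, limma adjusted p = 0.000122). Slc38a3 differed by -1.56 with siAirn-001.2 and 0.10 with siAirn-001.1 (contrast -1.66, limma adjusted p = 0.00147). In the other direction, Tra2a, a splicing regulator, differed by 0.59 with siAirn-001.2 and -1.11 with siAirn-001.1 (contrast 1.70, limma adjusted p = 0.00168). Slfn1, a regulator of T cell quiescence in mice, had a contrast of 1.51 and Ttpa, the transfer protein for vitamin E, of 1.5, each at a limma adjusted p of 0.00254. The counts rested on single arrays: they were 60 higher and 103 lower without siAirn-001.1 numbered 1, 174 and 149 without 2, 126 and 235 without 3, 174 and 165 without siAirn-001.2 numbered 1, 104 and 133 without 3, 83 and 147 without 4, and 189 and 217 without siScramble 1 or 2.

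**Figure D5:**
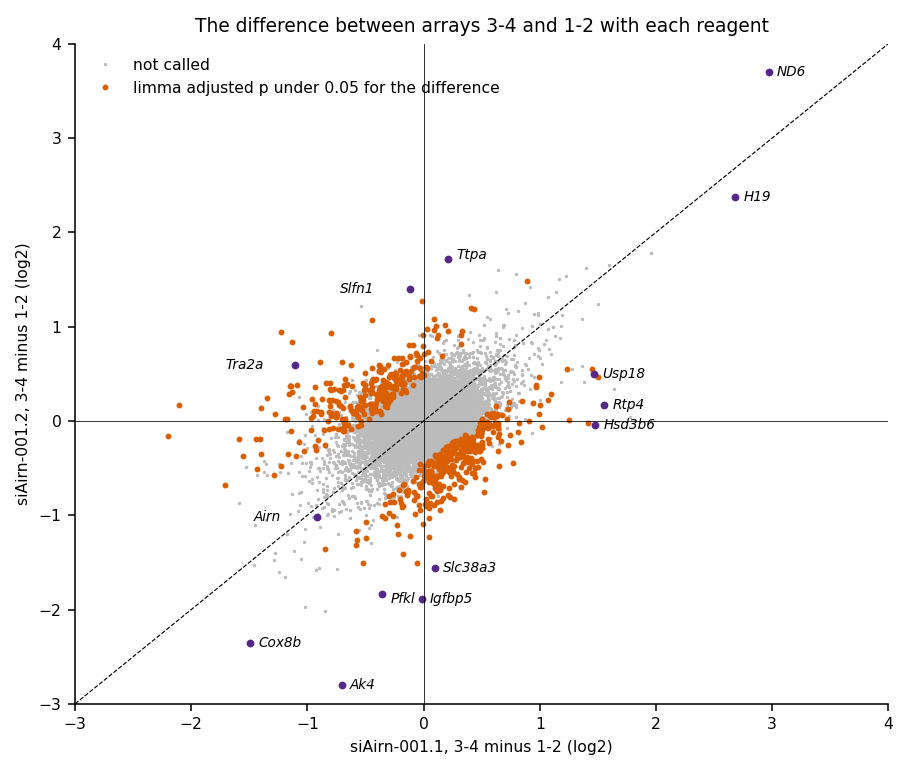
Log2 difference between arrays 3-4 and 1-2 with siAirn-001.2 (vertical axis) and with siAirn-001.1 (horizontal axis) for 20193 genes; orange marks genes called in the test of the difference between reagents, purple marks the genes labelled by name and the dashed line marks equality. H19 and Airn lie near the line, whereas Igfbp5, Slc38a3, Pfkl, Ak4, Tra2a, Slfn1, Ttpa, Rtp4 and Hsd3b6 lie away from it.

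Within each set, no gene passed the test. For siAirn arrays numbered 4 against 3, limma called 0 of 20193 genes (0.0%), with 1909 at an unadjusted p under 0.05 and a lowest adjusted p of 0.511. For numbers 2 against 1 it called 0 (0.0%), with 2506 at an unadjusted p under 0.05 and a lowest adjusted p of 0.292. Leaving out siAirn-001.2 numbered 3 gave 5 higher and 124 lower genes in number 4 against 3. Across all genes, the correlation between the siAirn-001.2 and the siAirn-001.1 difference was 0.43, given without a test.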

How the data were processed

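Total RNA of HL-1 cells was measured on 14 Affymetrix arrays, 1 sample and 1 label each, grouped by GEO's labels. The authors deposited log2 expression values per gene and array, 20193 genes with 1 row each, and a second table of the same values rounded (largest difference 0.005). RMA and limma are named in the submitters' processing notes, with no version or role, and the sources used here do not name the array model, genome build or annotation. Deposited p-values that the authors gave for the siAirn-against-siScramble difference were not used. RMA brings arrays to near-equal distributions (medians 7.45 to 7.55, SD 2.09 to 2.19), so a shift shared by most genes would not be seen. No 2 arrays were identical, and pairs correlated at 0.988 to 0.998. The deposited log2 values were used as they are. Arrays carry no read depth: their number limits the precision, the median SE being 0.0886 for the difference between the sets and 0.155 for the contrast between reagents.

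The difference between the sets came from a limma 3.58.1 fit (R 4.3.3) to the 8 siAirn arrays with reagent as covariate, and was not tested. Tests used limma (lmFit and eBayes), two-sided, with Benjamini-Hochberg adjustment over all genes and a threshold of 0.05: siScramble 3 and 4 against 1 and 2 and the contrast between reagents in a fit of 7 means of 2 arrays (7 residual and 5.72 prior degrees of freedom), and numbers 4 against 3 and 2 against 1 in a fit of number and reagent to the 8 siAirn arrays (3 residual and 4.83 prior). The script was tested on simulated data. The p-values measure the spread between these arrays, which the labels call biological replicates without naming separate cultures. Same-numbered arrays of both reagents deviated together from their group means (correlation across genes 0.32, 0.53, 0.36 and 0.43 for numbers 1 to 4). These deviations include the difference between the sets, so they do not by themselves show a pairing. For example, siAirn-001.2 numbered 3 and siAirn-001.1 numbered 4 correlated at 0.25. Within the sets, the difference of 3 minus 4 correlated between the reagents at 0.36 and that of 1 minus 2 at 0.41. The replicate block coincides with the sets and was fitted only as an alternative for the contrast between reagents. It gave 388 higher and 343 lower genes, against 277 and 345 in the main fit without it.

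The sets, the 52 gene lists and the 7 marker lists were chosen with earlier results of these data known, and 2 lists (mitochondrially encoded subunits, selenoproteins) were added after values were seen. Of 1822 list entries 1664 were measured, 30 through a synonym. The genes named are Airn and Igf2r; the 15 largest differences each way among genes that were apart; per list the 3 largest each way among members that were apart; and the 5 largest called each way in each test. Passed over were symbols starting with LOC, Olfr, Vmn, Snor, Mir or Gm plus a digit, those ending in Rik or joining several genes, and foreign controls. 2700094K13Rik, Phlda2, Ifit1, Rtp4, Nppa, Hcn4, Kcnj5 and Slc2a1 lie outside the rule and were chosen after their values were seen, and some genes the rule selects are not reported. Alternatives were each array left out, array weights, a mean-dependent prior, the siAirn arrays alone, median centring, a 2-fold bound, no overlap within each reagent, each reagent alone and, added after seeing the data, siScramble 5 and 6 left out. Further alternatives were the rounded values and a run without the genes of lowest mean level. Promoters matched by symbol in the RefSeq table (build GRCm38.p6).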

Additional observations from a re-analysis of the deposited data

Results flagged for a closer look

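The difference between arrays 3 and 4 and arrays 1 and 2 differed between the reagents for 622 genes in limma. Of the genes named, 18 were among them, and 14 passed in every alternative run that included them. Rtp4, 1 of the 14, was not part of the run that left out the genes of lowest mean level. Among the 14, the siAirn-001.2 difference minus the siAirn-001.1 difference was -2.09 for Ak4, -1.87 for Igfbp5, -1.66 for Slc38a3, -1.48 for Pfkl, -1.43 for Ifit1, -1.39 for Rtp4, -1.25 for Nppa, -1.21 for Hcn4, -1.09 for Kcnj5, -0.93 for Kcnk3 and -0.89 for Slc2a1, and it was 1.70 for Tra2a, 1.51 for Slfn1 and 1.5 for Ttpa. The other 4 each lost the call somewhere. Hsd3b6, a steroid dehydrogenase, had a contrast of -1.52 (limma adjusted p = 0.017), and Usp18 one of -0.97 (0.0186); both missed the threshold without siAirn-001.1 numbered 2, without siAirn-001.2 numbered 1 or 3, and with the 8 siAirn arrays alone (limma adjusted p up to 0.0675 and 0.0916). Cox6a2 had -0.74 (limma adjusted p = 0.0201) and missed it in the same settings and without siAirn-001.1 numbered 1 (up to 0.0825). Slc16a3 had -0.98 (limma adjusted p = 0.0141) and missed it without siAirn-001.1 numbered 1 or siAirn-001.2 numbered 4 (up to 0.0679).

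Of 402 groups of values screened (273 of genes and 129 of list means), 8 held a single array far from the rest; chance alone gives this in about 1 of 20 groups. By gene these were Cbr2 in siAirn-001.2 numbered 3 (8.62) and Slc40a1 in siAirn-001.2 numbered 4 (10.35), each among arrays 3 and 4, Phlda2 in siAirn-001.1 numbered 2 (8.13), among arrays 1 and 2, and Ifit1 in siScramble 3 (6.25). By list mean relative to siScramble they were the Airn locus in siAirn-001.1 numbered 1 (-0.054) and lipogenesis in siAirn-001.2 numbered 2 (0.113), each among arrays 1 and 2, and glycolysis (0.066) and adrenergic and cAMP signalling (-0.047) in siScramble 3.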

How the results depend on the processing

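All 79 named genes that were apart kept the sign of their difference in the 1183 values from other settings. For genes picked as apart this was nearly fixed in advance and carries little weight. Leaving out arrays or a reagent cannot turn such a sign, and of these settings only median centring could. Of 430 medians over 43 lists, 30 turned sign, each of them small. Counts of genes apart were 1499 to 1922 higher and 1528 to 2035 lower with each siAirn array left out in turn (131 to 190 and 172 to 233 by 1.5-fold), since fewer arrays overlap less. They were 2001 and 2159 with no overlap asked within each reagent (164 and 216 by 1.5-fold; 247 and 177 list members in place of 174 and 112), 4300 and 5559 with siAirn-001.2 alone (270 and 342), 4628 and 4810 with siAirn-001.1 alone (265 and 410), and 27 and 28 by 2-fold. With arrays centred on their medians, 198 list members were higher and 80 lower. The contrast between reagents gave 77 higher and 85 lower genes with the 8 siAirn arrays alone, 177 and 214 with array weights, 471 and 579 with a prior that follows the mean level, 266 and 282 without siScramble 5 and 6, and 60 to 372 and 103 to 367 with each array left out, the lone array of a pair being assumed to vary like the others. With the replicate block it gave 388 and 343, of which 509 were shared with the 622. Without the genes of lowest mean level it gave 410 and 496. Leave-one-out counts were 0 to 1 higher and 0 to 2 lower in siScramble 3 and 4 against 1 and 2 (most without siScramble 4), and 0 to 5 higher and 0 to 124 lower in siAirn 4 against 3 (most without siAirn-001.2 numbered 3). The causes of these shifts were not tested. With 4 arrays a set, small differences cannot be placed, and batch, culture and Airn level cannot be told apart.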

Other observations

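Some siScramble arrays resembled siAirn arrays of a given number more than others, and some did not. Taking each array's deviation from its own group's mean over all genes, siScramble 6 correlated at 0.58 and 0.54 with siAirn-001.2 and siAirn-001.1 numbered 2, against 0.06 and -0.07 with those numbered 1. siScramble 5 correlated at 0.23 and 0.48 with those numbered 1 and at 0.27 and 0.31 with those numbered 2. With the arrays numbered 3 and 4, siScramble 4 correlated at 0.33 and 0.35 for number 3 and at 0.15 and 0.23 for number 4, and siScramble 1 at 0.12 and -0.11 for number 3 and at 0.39 and 0.39 for number 4. siScramble 2 correlated at 0.15 and 0.05 for number 3 and at 0.46 and 0.37 for number 4. For siScramble 3 the values were 0.08 and 0.16 for number 3 and 0.13 and 0.11 for number 4. Each deviation includes the division of its own group, 3 and 4 against 1 and 2 or 1 to 4 against 5 and 6. These correlations are across genes, which are not independent, and carry no test. They are values only, since the labels do not tie a siScramble number to a siAirn number.

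Amino acid genes gave a further pattern between the reagents. Of 37 amino acid response and ATF4 target genes, 7 were apart and lower in arrays 3 and 4 and 1 higher, and the median difference was -0.16 with siAirn-001.2 and 0.08 with siAirn-001.1. In the test of the difference between reagents, 9 of the 37 were lower with siAirn-001.2, beside 1.71% of all genes, and none higher, beside 1.37%. The siScramble arrays 1 to 4 lay below 5 and 6 for 15 of these genes and above for 2.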
